A study of Mus musculus with 24 samples.

Results

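The 10 genes described here encode proteins of the tight junction. They are the claudins Cldn2, Cldn3, Cldn4, Cldn7, Cldn8, Cldn15 and Cldn23, occludin (Ocln), tricellulin (Marveld2) and the scaffold protein Tjp1. They were taken by gene symbol, with earlier results of these data known, and make up 10 of the 18820 genes measured. Their expression was read in terminal ileum of 24 male C57BL/6OlaHsd mice of 8 weeks old, with 1 array per mouse and 4 mice in each of 6 groups. Germ-free mice received a daily gavage of 10 mg long-chain β2→1-fructan, 10 mg short-chain β2→1-fructan or water alone for 5 days. Conventional mice received the same doses, with fructans not sterilized in the ways given below. All mice ate the D12450B diet. The comparisons ask whether fructans alter ileal gene expression with and without a microbiota, and whether chain length matters.

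The groups differed in more than their names. The germ-free mice came from a university breeding colony and the conventional mice from a commercial supplier, so colonization and colony origin cannot be told apart. For the germ-free mice the long-chain product was irradiated with 25 kGy and the short-chain product was passed through a 0.2 micron filter, and neither was done for the conventional mice. In germ-free mice, chain length and product treatment therefore cannot be told apart. Between germ-free and conventional mice on a fructan, and in the interactions, colonization and product treatment cannot be told apart either. The paper reports that irradiation partly degraded the longer oligomers, so the long-chain product was not quite the same in both kinds of mice. The labels name no scan date, cage or other batch, and nothing but the mouse number separates the replicates.

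Tight junctions seal the space between neighbouring epithelial cells near their apical side. Claudins form the strands and set which ions pass: some make channels, as Cldn2 and Cldn15 do for cations in the small intestine, and others, such as Cldn4 and Cldn8, are known mainly for tightening the seal. Occludin and tricellulin are MARVEL-domain membrane proteins, tricellulin sitting at tricellular contacts, and Tjp1 is the zonula occludens scaffold that ties the strands to actin.

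The values are log2 expression values normalized with RMA, so a difference of 1 is a change of 2-fold. Array medians lay between 4.92 and 4.98, and the 36 pairs of arrays of the same group correlated with r from 0.99 to 0.995 (across probe sets, not across independent replicates). The tissue label was checked with ileal genes. The bile acid binding protein Fabp6 read 12.4 to 12.8 and the ileal bile acid transporter Slc10a2 read 10.7 to 11.4 on the 24 arrays, while the colonic carbonic anhydrase Car1 ranged from 4.19 to 12.6. The mean of 2 colon epithelium markers was 4.01 to 8.62 in conventional mice on water, 6.40 to 9.21 on short-chain and 4.63 to 8.47 on long-chain fructan. In germ-free mice it was 3.86 to 5.51, 3.90 to 4.77 and 4.32 to 5.92. How alike the pieces were in position along the gut was not tested. The epithelial adhesion gene Epcam read 10.45 to 10.71, and the mean of 7 epithelium markers lay between 11.22 and 11.45 in every mouse. The RNA came from pieces of whole tissue, so fewer cells of a type and less RNA per cell cannot be told apart. A gene is called here, by the rule of the study, when limma gives p under 0.01 before adjustment and the groups differ more than 1.3-fold, and p-values adjusted by Benjamini-Hochberg over all 18820 genes are given beside it. With 4 mice against 4 an exact permutation test cannot go below p = 0.0286. Nothing states that mice of a group were housed apart, so the p-values measure the spread between these mice only.

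Of the 10 genes, Cldn4 and Cldn8 varied most, over 1.3 and 1.11 log2 units between the lowest and the highest mouse, and Cldn7 least, over 0.35. In the 9 comparisons between 2 groups, 5 calls were made in the 10 genes, all in Cldn4 and Cldn8. The share of all genes called ran from 0.213% (long-chain against short-chain fructan, conventional mice) to 9.69% (germ-free against conventional mice, long-chain fructan). Across the 24 mice, 50 pairs of groups stand next to each other when each gene's 6 group means are put in order. In none of these pairs did the groups separate without overlap, and in 5 the means differed by more than the pooled SD within groups. Neighbours in this order are the closest groups by construction, so these counts do not describe groups farther apart. Some of those did separate, such as Cldn4 between germ-free and conventional mice after short-chain fructan. The same pairs were not counted over all genes.

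Cldn4 lies on chromosome 5 at chr5:134945123-134946934 (GRCm38), 39279 bases from Cldn3 at chr5:134986214-134987476. Cldn15 is also on this chromosome, at chr5:136967869-136975845. The 250 bases before the start of these 3 genes are shown because their results differed. Cldn4 was called after short-chain fructan in germ-free mice, though with an adjusted p of 0.72 in limma. Its neighbour Cldn3 was called in no comparison. Cldn15 was not called either, but was higher in germ-free than in conventional mice on water at an adjusted p of 0.023 in limma. Sequences are from RefSeq (GRCm38.p6), each 5′ to 3′ on the strand of its gene. Capitals mark matches, on either strand, to GGGCGG (the GC box), AACNGGTT (grainyhead), TGANTCA (AP-1) or TATAAA (the TATA box).
Cldn4, chr5:134946935-134947184, minus strand: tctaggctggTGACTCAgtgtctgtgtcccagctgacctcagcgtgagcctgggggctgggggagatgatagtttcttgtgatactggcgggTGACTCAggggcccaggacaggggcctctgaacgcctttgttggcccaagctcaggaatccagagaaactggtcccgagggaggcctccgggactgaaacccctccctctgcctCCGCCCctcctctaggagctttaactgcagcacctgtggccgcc
Cldn3, chr5:134985964-134986213, plus strand: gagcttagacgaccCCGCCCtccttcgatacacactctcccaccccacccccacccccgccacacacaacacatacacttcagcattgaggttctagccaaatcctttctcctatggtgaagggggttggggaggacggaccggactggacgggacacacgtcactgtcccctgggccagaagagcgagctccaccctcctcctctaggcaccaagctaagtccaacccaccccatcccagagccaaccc
Cldn15, chr5:136967619-136967868, plus strand: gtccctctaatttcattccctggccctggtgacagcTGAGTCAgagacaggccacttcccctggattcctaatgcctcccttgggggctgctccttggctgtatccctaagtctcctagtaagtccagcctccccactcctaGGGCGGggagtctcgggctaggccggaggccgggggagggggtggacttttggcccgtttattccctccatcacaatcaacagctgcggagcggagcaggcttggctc
The Cldn4 stretch holds 2 AP-1 matches and 1 GC box, the Cldn3 stretch 1 GC box, and the Cldn15 stretch 1 AP-1 match and 1 GC box. Of 32851 mouse promoter stretches of this length, 6.75% hold at least 1 AP-1 match and 0.338% hold 2 or more, while 32.7% hold a GC box, 12.4% a TATA box and 1.79% a grainyhead match. No match to AACNGGTT or TATAAA was found in these 3 windows. A match describes the letters only, and no binding was measured. An entry was found for 8 of the 10 genes, all but Cldn8 and Cldn23.

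Cldn4 was the one gene of the 10 called after a fructan. In germ-free mice it fell after short-chain fructan. The 4 mice on short-chain fructan read 7.75, 8.21, 8.37 and 8.00, against 8.77, 8.70, 8.91 and 8.27 in germ-free mice on water. Of these, 3 short-chain mice lay below every water mouse. The groups overlapped only because the third short-chain mouse (8.37) lay above the fourth water mouse (8.27). The means of 8.08 ± 0.27 with short-chain fructan and 8.66 ± 0.27 with water (SD, n = 4 each) gave a log2 fold change of -0.58 (SE 0.14, 95% interval -0.87 to -0.29), or 1.5-fold lower. The call had p = 0.00034 in limma, but the p adjusted over all genes was 0.72, and the exact permutation test gave p = 0.0571. Over all genes, 109 of 18820 (0.579%) were called in this comparison and none had an adjusted p under 0.05. The other 9 genes differed by -0.19 to 0.11 between these groups, and none of them had an unadjusted p under 0.05. Tjp1 is the only one whose mice did not overlap, at 9.33 to 9.38 on short-chain fructan against 9.40 to 9.54 on water, a difference of -0.10 with an adjusted p of 0.93.

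Cell type markers were set beside this difference, and none of the epithelium, M cell and follicle epithelium, smooth muscle and adipocyte markers was called. In germ-free mice the epithelium markers averaged 11.31 ± 0.05 with short-chain fructan and 11.35 ± 0.06 with water (SD, n = 4 each), and with their mean as a covariate the log2 fold change of Cldn4 was -0.53 and still a call. M cell and follicle epithelium markers averaged 4.80 ± 0.12 and 4.83 ± 0.07 in the same groups, and with them as a covariate the change was -0.58 and again a call. All 6 smooth muscle markers had positive differences, with a median of 0.27, and their mean ranged from 10.06 to 10.33 with short-chain fructan and from 9.38 to 10.31 with water. With that mean as a covariate Cldn4 changed by -0.59 (adjusted p = 0.64), also a call. All 4 adipocyte markers had positive differences too, with a median of 0.79, and their mean ranged from 7.17 to 7.69 with short-chain fructan and from 5.67 to 7.79 with water. The part of the adipocyte markers in the result was not tested.

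Long-chain fructan gave no call in Cldn4 in germ-free mice. These 4 mice read 8.46, 8.59, 8.69 and 8.31 (8.51 ± 0.17, SD), and differed from germ-free mice on water by -0.15 (95% interval -0.44 to 0.14, adjusted p = 0.78). Cldn4 was also compared directly between the fructans. With long-chain fructan it was 0.43 higher on the log2 scale than with short-chain fructan (SE 0.14, 95% interval 0.14 to 0.72, 1.35-fold), with only the highest short-chain mouse above the lowest long-chain mouse. This is a call by p = 0.0051 in limma, with an adjusted p of 0.25 and an exact permutation p of 0.0571, where 265 of all genes (1.41%) were called. The call was lost when any 1 of 4 mice was left out. The log2 fold change was 0.32 without the first short-chain mouse, 0.41 without the fourth of that group, 0.41 without the second long-chain mouse and 0.37 without the third. B cell markers moved with this comparison: Ms4a1 (CD20) was 0.86 and the complement receptor Cr2 0.56 higher with long-chain than with short-chain fructan, both called. The mean of 5 B cell markers was 3.31, 3.12, 3.99 and 4.42 in the 4 long-chain mice and 3.11, 3.28, 3.51 and 3.13 in the 4 short-chain mice. Without the third and the fourth long-chain mouse, where these markers were high, the difference in Cldn4 was 0.44 and not a call (adjusted p = 0.31). Spib, a transcription factor of M cells and B cells, was also called, at 0.41 higher.

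In conventional mice no fructan comparison called Cldn4 or any other of the 10 genes. Cldn4 read 8.30, 8.41, 8.33 and 8.77 on long-chain fructan, 8.38, 8.71, 8.49 and 9.05 on short-chain fructan, and 8.92, 8.74, 8.74 and 8.68 on water. Of the 4 long-chain mice, 3 lay below every water mouse. The mean difference of long-chain fructan from water was -0.32 (95% interval -0.61 to -0.03, adjusted p = 0.87, exact permutation p = 0.114), and without the fourth long-chain mouse it was -0.42 and called. For short-chain fructan it was -0.11 (95% interval -0.40 to 0.18). Whether the response of Cldn4 to short-chain fructan depended on colonization was tested as an interaction. The change was 0.47 more negative in germ-free than in conventional mice (log2 difference -0.47, SE 0.20, adjusted p = 0.90), which is not a call, although leaving out the third germ-free short-chain mouse, the first conventional short-chain mouse or the fourth germ-free water mouse made it one, with a largest difference of -0.60. No interaction with either fructan was called in the 10 genes, against 0.707% of all genes for short-chain and 0.531% for long-chain fructan.

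**Figure D1:**
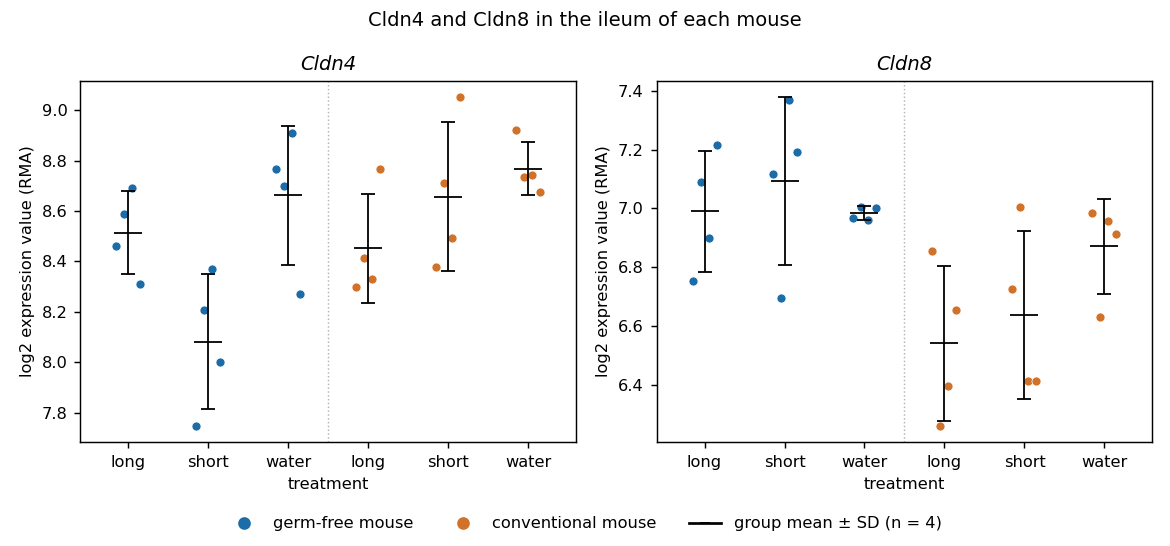
Log2 expression values (RMA) of Cldn4 (left) and Cldn8 (right) in each mouse, by treatment, with germ-free mice in blue and conventional mice in orange. Each point is 1 mouse, and the lines give the group mean ± SD (n = 4). Cldn4 is lowest in germ-free mice on short-chain fructan (mean 8.08), and Cldn8 is higher in germ-free than in conventional mice on either fructan.

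Set against conventional mice on the same treatment, Cldn4 was called lower in germ-free mice after short-chain fructan and was not called in the other treatments. The highest of the 4 germ-free values was 8.37 and the lowest of the 4 conventional values 8.38, so the groups did not overlap but nearly touched. The log2 fold change was -0.58 (SE 0.14, 95% interval -0.87 to -0.29, 1.49-fold lower), with limma p = 0.00038, adjusted p = 0.0057 and an exact permutation p of 0.0286, the smallest possible. Cldn4 kept this call when each of the 24 mice was left out in turn. Given long-chain fructan, germ-free mice differed from conventional mice by 0.06 (95% interval -0.23 to 0.35), and given water by -0.11 (95% interval -0.40 to 0.18). Tissue markers moved with colonization in every treatment, beside Cldn4. After short-chain fructan, 4 of 5 M cell and follicle epithelium markers were called lower in germ-free mice, and the mean of the list ranged from 4.67 to 4.96 in germ-free mice and from 5.21 to 5.43 in conventional mice. With that mean as a covariate the log2 fold change of Cldn4 was still -0.57 but not a call (adjusted p = 0.48). With the smooth muscle markers as a covariate it was -0.57 (adjusted p = 0.034) and with the epithelium markers -0.61 (adjusted p = 0.0048), both calls. The M cell and smooth muscle means do not overlap between germ-free and conventional mice, so fits with these lists cannot separate them from colonization.

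Cldn8, on chromosome 16 at chr16:88560826-88563183, pairs with other sealing claudins and is known best from the distal nephron and colon. It was higher in germ-free than in conventional mice on both fructans. After short-chain fructan it read 7.12, 6.70, 7.37 and 7.19 in germ-free mice, against 6.73, 7.003, 6.41 and 6.41 in conventional mice. With long-chain fructan it read 6.75, 7.09, 6.90 and 7.22 in germ-free mice, against 6.85, 6.26, 6.40 and 6.65 in conventional mice. In each case 3 of 4 germ-free mice lay above every conventional mouse, and 1 germ-free mouse fell among them. The log2 fold change was 0.45 (95% interval 0.16 to 0.74) after short-chain fructan, with limma p = 0.0034, adjusted p = 0.029 and exact permutation p = 0.0857. It was also 0.45 (95% interval 0.16 to 0.74) after long-chain fructan, with limma p = 0.0037, adjusted p = 0.030 and exact permutation p = 0.0571.

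On water Cldn8 was not called. The 4 germ-free mice read 6.96 to 7.01 and the conventional mice 6.63 to 6.98, a difference of 0.11 (95% interval -0.18 to 0.40, adjusted p = 0.68). The germ-free means were close to each other, at 6.99 ± 0.20 on long-chain fructan, 7.09 ± 0.29 on short-chain fructan and 6.98 ± 0.02 with water (SD, n = 4 each). The conventional means were 6.54 ± 0.26, 6.64 ± 0.29 and 6.87 ± 0.16 for the same treatments. Long-chain fructan differed from water in conventional mice by -0.33 (95% interval -0.62 to -0.04, adjusted p = 0.87), which is not a call but became one, at -0.43, without the first long-chain mouse. The interaction was 0.34 for either fructan (adjusted p = 0.91 with short-chain fructan and 1.00 with long-chain fructan), so a difference in response was not shown.

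The 2 calls in Cldn8 depended on single mice. After short-chain fructan the call was lost without the third or the fourth germ-free mouse, or without the third or the fourth conventional mouse, when the log2 fold change lay between 0.36 and 0.42. For long-chain fructan it was lost without the second or the fourth germ-free mouse or the second or the third conventional mouse, at 0.36 to 0.42. Smooth muscle markers were lower in germ-free mice beside Cldn8: all 6 had negative differences in each treatment, and the mean of the list ranged from 10.06 to 10.33 in germ-free and from 10.41 to 10.56 in conventional mice after short-chain fructan. With this mean as a covariate, Cldn8 differed by 0.46 (adjusted p = 0.098) after short-chain fructan and by 0.45 (adjusted p = 0.13) after long-chain fructan, neither a call, although the differences were as large as without it. With the M cell and follicle epithelium markers as a covariate both calls were kept and the differences were larger, at 1.01 (adjusted p = 0.076) after short-chain and 0.76 (adjusted p = 0.013) after long-chain fructan. With the epithelium markers both were also kept, at 0.43 (adjusted p = 0.048) and 0.42 (adjusted p = 0.058). The smooth muscle and M cell means do not overlap between germ-free and conventional mice. The fits with these lists therefore cannot separate them from colonization.

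**Figure D2:**
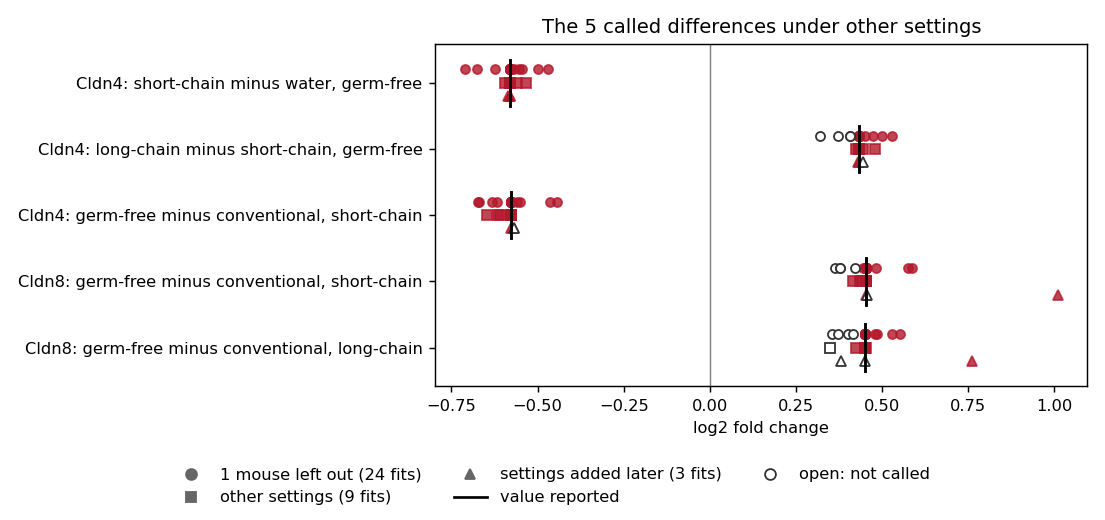
Log2 fold changes of the 5 called differences in Cldn4 and Cldn8 under 36 other settings: 24 fits that each leave out 1 mouse (circles), 9 other settings (squares) and 3 settings added after the data were seen (triangles). The black line is the value reported, and open symbols are fits in which the difference was not called. Cldn4 after short-chain fructan against water in germ-free mice, between -0.71 and -0.47, was called in every fit.

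Germ-free and conventional mice differed widely in the ileum, so the calls among the 10 genes have to be read against a high background. By the rule of the study, 8.74% of all genes were called on water, 8.76% after short-chain and 9.69% after long-chain fructan. At an adjusted p under 0.05 these shares were 13.5%, 15% and 15.9%. Of the 10 genes, none was called by the rule of the study on water, 2 after short-chain (Cldn4 and Cldn8) and 1 after long-chain fructan (Cldn8). At an adjusted p under 0.05 the counts were 1 (Cldn15), 2 (Cldn4 and Cldn8) and 1 (Cldn8). In each of the 3 treatments 5 of 10 genes had an unadjusted p under 0.05 in limma. Over all 18820 genes this held for 4853 on water, 5146 after short-chain and 5299 after long-chain fructan. Most differences were small and positive, with a median over the 10 genes of 0.09 on water, 0.11 after short-chain and 0.11 after long-chain fructan, beside 0.01, 0.03 and 0.03 over all genes.

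The pore-forming claudins differed from each other in their order of groups. Cldn15 (chr5:136967869-136975845) had a higher mean in germ-free mice in each treatment and passed an adjusted p of 0.05 on water. On water it read 9.54, 9.20, 9.37 and 9.39 in germ-free mice, against 9.33, 8.98, 9.04 and 8.997 in conventional mice. The groups overlapped only because the first conventional mouse lay above the second germ-free mouse. The log2 fold change was 0.29 (SE 0.09, 95% interval 0.11 to 0.46), with limma p = 0.0023, adjusted p = 0.023 and exact permutation p = 0.0571, and its 1.22-fold size is below the limit for a call. Its adjusted p was above 0.05 in 5 of the 24 fits that leave out 1 mouse (the first or the fourth germ-free, or the second, the third or the fourth conventional water mouse), where the difference was 0.23 to 0.28. With the M cell and follicle epithelium markers as a covariate it was 0.08 (adjusted p = 0.91), with the smooth muscle markers 0.37 (adjusted p = 0.087) and with the epithelium markers 0.27 (adjusted p = 0.12). The M cell and smooth muscle fits cannot separate these lists from colonization, as said above. After short-chain fructan Cldn15 was 9.24 ± 0.05 in germ-free and 9.03 ± 0.12 in conventional mice (SD, n = 4 each), with no overlap. On long-chain fructan it was 9.16 ± 0.17 in germ-free and 8.92 ± 0.09 in conventional mice. The adjusted p was 0.096 and 0.060 in these comparisons. Within germ-free mice, long-chain fructan and water differed in Cldn15 by -0.22 (95% interval -0.39 to -0.04, adjusted p = 0.45), which is not a call.

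Cldn2 (chrX:139800808-139811386), the cation and water channel of leaky epithelia, went the other way on water. The 4 germ-free mice read 8.42 to 8.57 and the 4 conventional mice 8.67 to 8.88, with no overlap, a log2 fold change of -0.24 (95% interval -0.42 to -0.05). It had limma p = 0.013, adjusted p = 0.077 and exact permutation p = 0.0286. On the fructans the germ-free and conventional mice overlapped, with differences of -0.07 after short-chain and -0.06 after long-chain fructan. No difference of Cldn2 between a fructan and water exceeded 0.12 in size in either kind of mouse.

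Among the other barrier claudins, Cldn3 and Cldn7, which are expressed along the whole gut epithelium, were the most even. Cldn3 had group means from 9.51 to 9.59, and none of its differences had an unadjusted p under 0.05. Cldn7 (chr11:69964779-69967886) had group means from 10.21 to 10.37, with its lowest mean in germ-free mice on long-chain fructan. These mice read 10.13 to 10.29, against 10.31 to 10.45 on short-chain fructan and 10.27 to 10.48 on water, so that they did not overlap with the short-chain mice. The differences were -0.13 from short-chain fructan (limma p = 0.032, adjusted p = 0.34, exact permutation p = 0.0286) and -0.15 from water (limma p = 0.013, adjusted p = 0.42). Neither reached the 1.3-fold limit, and in conventional mice the corresponding differences in Cldn7 were -0.01 and -0.01.

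Cldn23 (chr8:35824709-35826559), a claudin of differentiated gut epithelium, had a higher mean in germ-free mice in each treatment. On water it read 7.63, 7.61, 7.72 and 7.70 in germ-free mice, against 7.56, 7.04, 7.33 and 7.39 in conventional mice, with no overlap. The log2 fold change was 0.34 (95% interval 0.07 to 0.60), with limma p = 0.015, adjusted p = 0.086 and exact permutation p = 0.0286. It was called only when the first conventional water mouse was left out, at 0.41. On the fructans the groups overlapped and the differences were 0.21 after short-chain and 0.27 after long-chain fructan. In germ-free mice Cldn23 differed from water by -0.21 on long-chain fructan (95% interval -0.47 to 0.06) and by -0.19 on short-chain fructan (95% interval -0.46 to 0.07), neither with an unadjusted p under 0.05.

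Occludin and tricellulin lie near each other on chromosome 13, Ocln at chr13:100496504-100552718 and Marveld2 at chr13:100595957-100616971, with 43238 bases between them. Ocln read 8.91 to 9.18 in germ-free and 8.80 to 8.90 in conventional mice on water, with no overlap, a log2 fold change of 0.17 (95% interval 0.01 to 0.33, limma p = 0.036, adjusted p = 0.16, exact permutation p = 0.0286). After short-chain fructan it was 8.94 ± 0.09 in germ-free and 8.75 ± 0.14 in conventional mice, and after long-chain fructan 8.84 ± 0.15 and 8.68 ± 0.10 (SD, n = 4 each). The highest Ocln means were thus those on water, and the lowest those on long-chain fructan, in both kinds of mice. Between long-chain fructan and water the difference was -0.18 in germ-free mice (adjusted p = 0.50) and -0.17 in conventional mice (adjusted p = 0.87). In conventional mice these groups did not overlap, at 8.54 to 8.75 on long-chain fructan against 8.80 to 8.90 on water. Neither difference is a call.

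Marveld2 differed less. After short-chain fructan it read 7.38 to 7.60 in germ-free and 7.17 to 7.30 in conventional mice, with no overlap (log2 fold change 0.18, 95% interval 0.03 to 0.33, limma p = 0.018, adjusted p = 0.092, exact permutation p = 0.0286). On water and on long-chain fructan the differences were 0.08 and 0.07, with overlapping mice.

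Tjp1 (chr7:65296165-65527850) had the narrowest spread within groups after Cldn7, with a pooled SD of 0.079. It read 9.40 to 9.54 in germ-free and 9.25 to 9.39 in conventional mice on water, with no overlap (log2 fold change 0.15, 95% interval 0.02 to 0.27, limma p = 0.023, adjusted p = 0.12, exact permutation p = 0.0286). Germ-free minus conventional was 0.17 after long-chain fructan (adjusted p = 0.063) and 0.04 after short-chain fructan (adjusted p = 0.77).

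**Figure D3:**
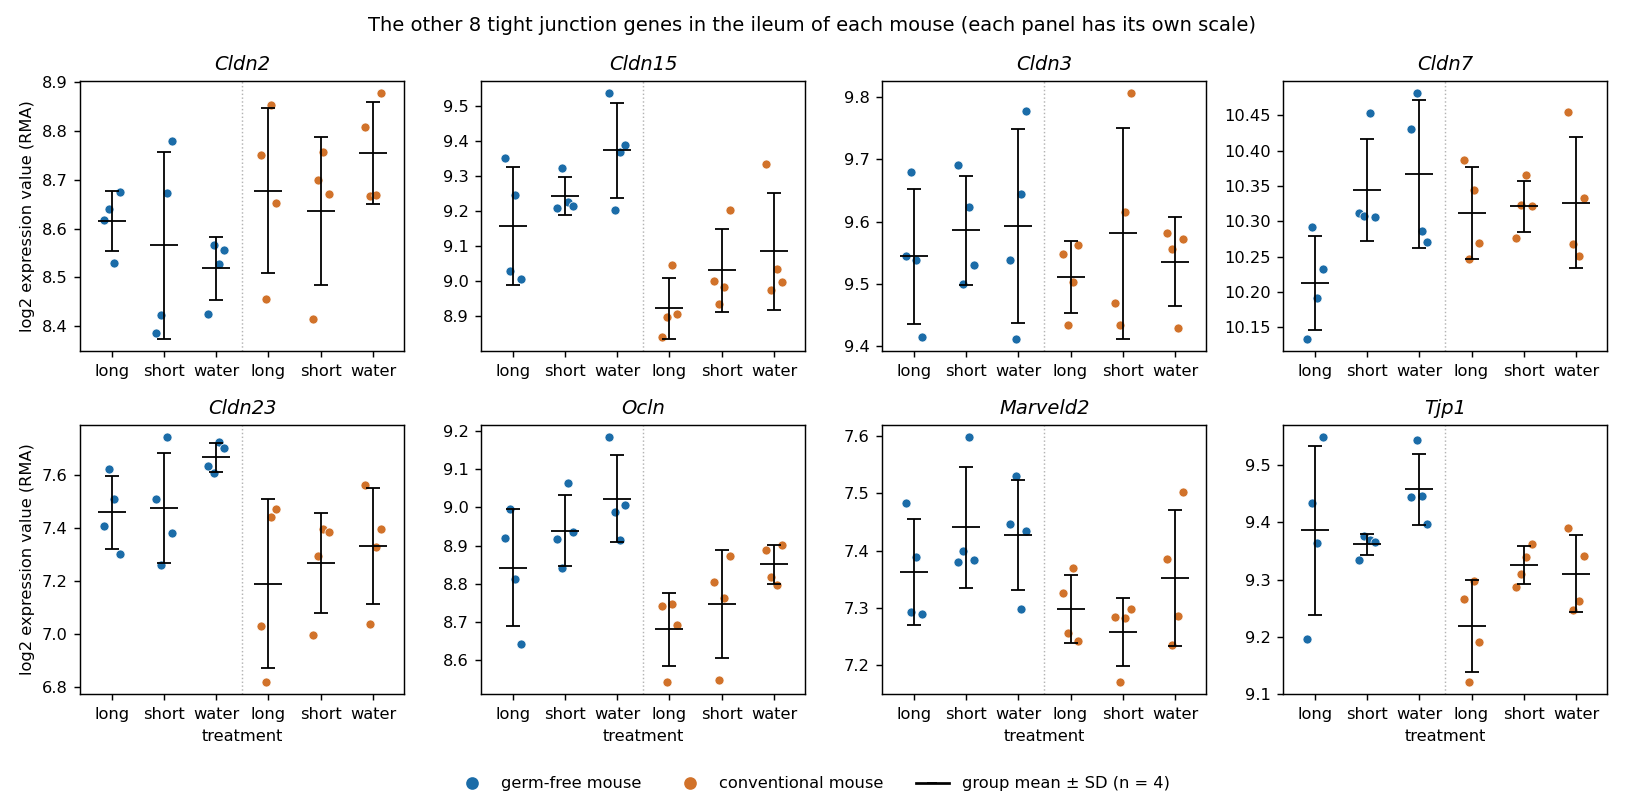
Log2 expression values (RMA) of the 8 other genes in each mouse, by treatment, with germ-free mice in blue and conventional mice in orange and a scale of its own for each gene. Each point is 1 mouse, and the lines give the group mean ± SD (n = 4). Cldn15, Cldn23, Ocln, Tjp1 and Marveld2 have higher means in germ-free mice in each treatment. So does Cldn3, by 0.005 to 0.06, with group means between 9.51 and 9.59.

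The sign of germ-free minus conventional was then followed over the 3 treatments, which share no mice. It was the same in all 3 for 8 of 10 genes (80%), higher in germ-free mice for 7 (Cldn3, Cldn8, Cldn15, Cldn23, Ocln, Tjp1 and Marveld2) and lower for Cldn2. Over all genes the same held for 10690 of 18820 (56.8%), 6239 of them higher and 4451 lower. Germ-free minus conventional averaged over the 3 treatments, a comparison added after the first results were seen, rests on 12 mice against 12. At an adjusted p under 0.05, 6 of 10 genes were higher in germ-free mice. They were Cldn8 (0.34), Cldn23 (0.27), Cldn15 (0.25), Ocln (0.17), Tjp1 (0.12) and Marveld2 (0.11), with adjusted p from 0.00027 for Cldn15 to 0.047 for Marveld2. None was lower by this test: Cldn4 averaged -0.21 (adjusted p = 0.051) and Cldn2 averaged -0.12 (adjusted p = 0.065). Both were lower at an adjusted p under 0.05 in 3 other settings. The adjusted p of Cldn2 was 0.0053 with cyclic loess, 0.020 with array weights and 0.027 with the epithelium markers as a covariate, and that of Cldn4 was 0.014, 0.039 and 0.047 in the same settings. In the same comparison 34% of all genes had an adjusted p under 0.05, and the median over all genes was 0.03.

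The differences of these 6 genes are small, between 1.08-fold and 1.26-fold, and were compared with 3 marker lists as covariates. With the epithelium markers Cldn8 (0.31) and Cldn15 kept an adjusted p under 0.05, while Cldn23 (0.18, adjusted p = 0.12), Ocln (0.14, adjusted p = 0.056), Tjp1 (0.08, adjusted p = 0.15) and Marveld2 (0.09, adjusted p = 0.23) did not. With the smooth muscle markers Cldn15 passed, at 0.31. Cldn8 (0.34, adjusted p = 0.12) and Cldn23 (0.31, adjusted p = 0.12) did not pass there, though their differences were no smaller than without the covariate, and Ocln, Tjp1 and Marveld2 differed by 0.12, 0.10 and 0.01. With the M cell and follicle epithelium markers Cldn8 passed, at 0.80. In that fit Cldn23 differed by 0.28 (adjusted p = 0.58), Ocln by 0.10, Tjp1 by 0.09, Cldn15 by 0.06 and Marveld2 by -0.03. The means of the smooth muscle and the M cell lists do not overlap between germ-free and conventional mice, so each of these covariates and colonization carry much the same information. With 1 mouse left out at a time, Cldn8, Cldn23, Cldn15, Ocln and Tjp1 passed in all 24 fits and Marveld2 in 8. Cldn4 passed as lower in 9 and Cldn2 in 4. Tjp1 (0.06, adjusted p = 0.19) and Marveld2 (0.08, adjusted p = 0.11) did not pass with cyclic loess. Whether the 6 differences would be found in isolated epithelium was not tested.

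**Figure D4:**
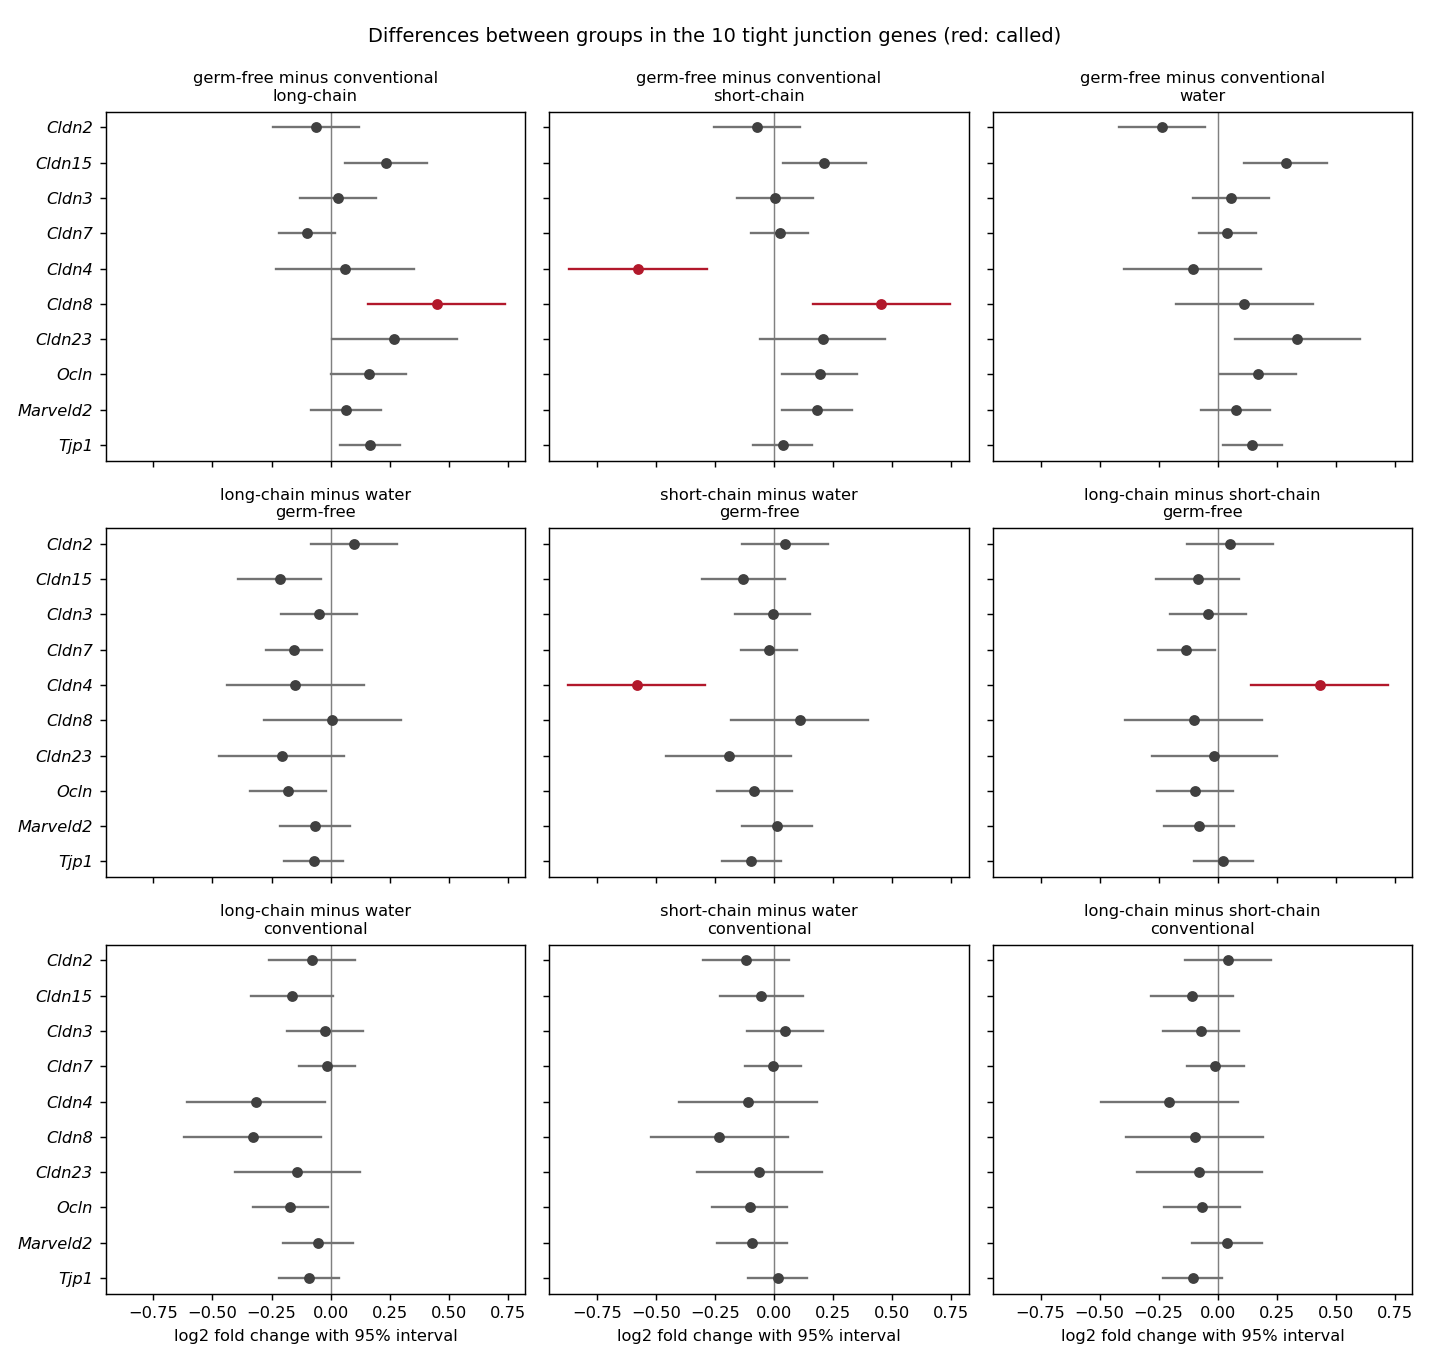
Log2 fold changes with 95% intervals of the 10 genes in the 9 comparisons between 2 groups, with germ-free minus conventional in the top 3 panels, fructans in germ-free mice in the middle and fructans in conventional mice at the bottom. Calls by the rule of the study are in red and are limited to Cldn4 and Cldn8, and the widest intervals are those of these genes and Cldn23.

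Against water, the fructans gave few differences in the 10 genes. In germ-free mice none was called for long-chain fructan, beside 0.855% of all genes. There 3 of 10 had an unadjusted p under 0.05 in limma (Cldn7, Cldn15 and Ocln), beside 1644 of all 18820 genes. In conventional mice none was called in any fructan comparison, beside 0.313% of all genes for long-chain fructan against water, 0.409% for short-chain fructan against water and 0.213% for long-chain against short-chain fructan. At an unadjusted p under 0.05 the counts there were 3 of 10 for long-chain fructan against water (Cldn4, Cldn8 and Ocln) and 0 for both others. Over all 18820 genes, 1067 had such a p for long-chain and 982 for short-chain fructan against water. For long-chain against short-chain fructan the number was 684. The intensity-based moderated t gave the same counts of calls in these comparisons. The sign was mostly negative. For long-chain fructan against water, 8 of 10 differences were negative in germ-free mice (median -0.11, beside 0.0026 over all genes) and 10 of 10 in conventional mice, from -0.33 (Cldn8) to -0.01 (Cldn7), with a median of -0.12 beside -0.02 over all genes. For short-chain fructan 7 of 10 were negative in germ-free mice (median -0.05, beside 0.0095 over all genes). In conventional mice 8 of 10 were negative (median -0.08, beside -0.02 over all genes). The share of negative differences over all genes was not counted. Both fructans are set against the same 4 water mice, so these counts are not independent.

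Chain length was compared directly at the same dose and time. In conventional mice the differences of long-chain from short-chain fructan lay between -0.21 (Cldn4, 95% interval -0.50 to 0.09) and 0.04 (Cldn2, 95% interval -0.14 to 0.22). For Cldn4 the same difference in germ-free mice was 0.43 (95% interval 0.14 to 0.72). Whether the effect of chain length differed between germ-free and conventional mice was not tested. In germ-free mice, apart from Cldn4 and Cldn7, the differences ran from -0.10 (Cldn8, 95% interval -0.39 to 0.19) to 0.05 (Cldn2, 95% interval -0.13 to 0.23).

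The rest of the junction was read from lists of other genes. None of 16 other claudins was called for germ-free against conventional mice in any treatment, beside 8.74% to 9.69% of all genes. With long-chain against short-chain fructan in germ-free mice 2 were called higher, beside 1.41% of all genes called. These were Cldn13 (log2 fold change 0.38, adjusted p = 0.23) and Cldn14 (0.43, adjusted p = 0.27). The mean log2 value of the 16 lay between 3.92 and 4.04 in the 6 groups, below the array medians of 4.92 to 4.98. Of 10 other membrane proteins, Ildr1, which marks tricellular contacts together with tricellulin, was called lower in germ-free mice on water (-0.66), after short-chain (-0.82) and after long-chain fructan (-0.62). The adhesion molecule Jam2 was called lower on water (-0.41). Of 18 plaque and polarity proteins, Pard6b, a subunit of the polarity complex, was called higher in germ-free mice on water (0.53), and none was called on the fructans. No gene of these 3 lists was called for a fructan against water, beside 0.313% to 0.855% of all genes. Of 14 genes of adherens junctions and desmosomes, the desmosomal linker Ppl (periplakin) was called higher in germ-free mice in each treatment, at 0.41 on water, 0.43 after short-chain and 0.44 after long-chain fructan. The median differences of germ-free from conventional mice in the 4 lists lay between -0.07 and 0.11, beside 0.01 to 0.03 over all genes.

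Genes whose values ran most like those of Cldn4 and Cldn8 were sought over the 24 mice among 18819 genes. For Cldn4 they were Tox3 (Pearson r = 0.83, Spearman rho = 0.79), Oasl1 (r = 0.82, rho = 0.85) and Dusp10 (r = 0.80, rho = 0.78). Without the 2 mice farthest from the median of Cldn4 the r were 0.72, 0.79 and 0.71. For Cldn8 they were Dna2 (r = 0.84, rho = 0.84), Olig3 (r = 0.81, rho = 0.74) and Adat2 (r = 0.78, rho = 0.80), with r of 0.80, 0.74 and 0.75 without the 2 farthest mice. Olig3 had group means of only 1.93 to 2.26, below the array medians of 4.92 to 4.98. The mice fall into 6 groups that differ in means, so these values describe a shared pattern over groups and mice, and no p is given for a gene chosen as the highest of so many.

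Cell type markers set the frame for the differences with colonization. All 5 T cell markers were called lower in germ-free mice in each treatment, with median log2 fold changes of -2.37 on water, -2.09 after short-chain and -2.41 after long-chain fructan. Paneth cell markers were called lower for 3 of 4 genes on water, 2 after short-chain and 3 after long-chain fructan, and the mean of the list was 10.46 ± 0.23 in germ-free and 10.96 ± 0.06 in conventional mice on water (SD, n = 4 each). Adipocyte markers were called higher in germ-free mice for 2, 3 and 3 of 4 genes in the same treatments. Of 2 colon epithelium markers measured, Car1 was called lower in germ-free mice in each treatment. In contrast, none of 7 epithelium markers was called in any of these comparisons, and their medians lay between 0.01 and 0.08. The part of these shifts in the values of the 10 genes was tested only with the covariates named above.

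**Figure D5:**
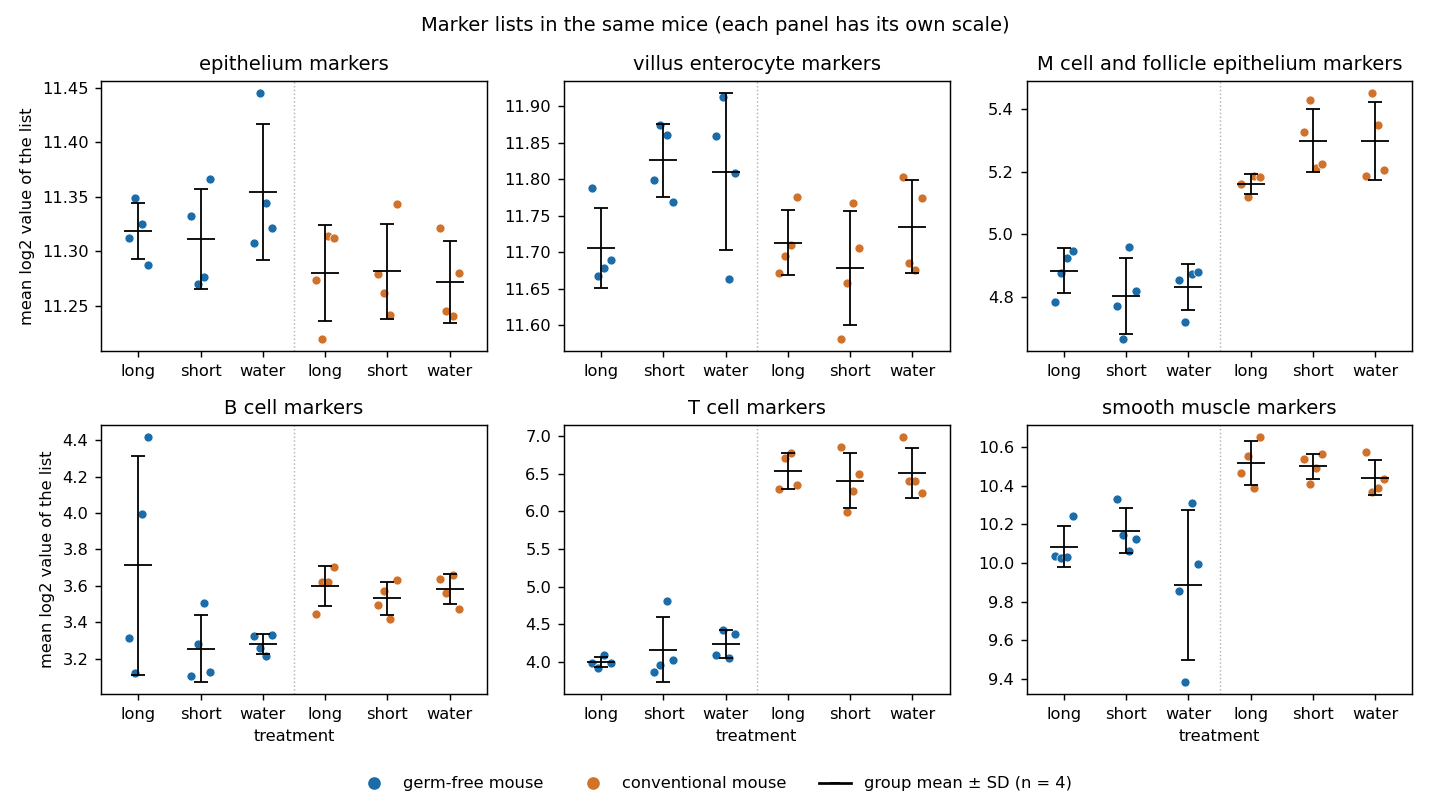
Mean log2 value of 6 lists of cell type markers in each mouse, by treatment, with germ-free mice in blue and conventional mice in orange and a scale of its own for each list. Each point is 1 mouse, and the lines give the group mean ± SD (n = 4). Epithelium markers stay between 11.22 and 11.45, T cell markers are lower in every germ-free mouse, and B cell markers are high in 2 germ-free mice on long-chain fructan (3.99 and 4.42).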

How the data were processed

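Expression was measured in terminal ileum of 24 mice with Affymetrix Mouse Gene 1.1 ST arrays. The authors deposited log2 values that they had made with RMA (background correction, quantile normalization and summary of the probes of a set). The methods name remapped probe sets, whereas the rows deposited are numbered as in the maker's own probe sets. Of 35556 probe sets, 21218 have 1 gene symbol in the platform annotation, 1881 have several and 12457 have none. Only those with 1 symbol were used, with the highest mean over all arrays for the 1386 genes with several sets. This gave 18820 genes, and each of the 10 genes described has 1 value per array. Positions and promoters are from RefSeq (GRCm38).

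Group means of the 24 arrays were fitted in limma 3.58.1 (R 4.3.3) with a prior variance that follows mean expression, and the fit was tested on simulated data. Exact permutation tests were two-sided, 4 mice against 4. Precision is limited by the number of arrays, 4 per group. Alternatives were 1 common prior, the intensity-based moderated t of the study (span 0.3), cyclic loess, array weights, fewer arrays in the fit, dim genes (lowest 25 percent) left out, averaged probe sets, the replicate number as a block, epithelium markers as a covariate, and each mouse left out. Added after seeing the data were 2 further marker covariates, 2 arrays left out together and the comparison averaged over treatments.

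All 10 genes are described. Of other lists, written from general knowledge, up to 4 called genes are named, and for Cldn4 and Cldn8 the 3 genes with the highest r. The genes and lists were chosen with earlier results of these data known.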

Additional observations from a re-analysis of the deposited data

Results flagged for a closer look

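In 6 of 60 sets of 4 mice (10 genes in 6 groups) 1 mouse stood apart, with a gap to its nearest neighbour above Dixon's critical share of the whole range. Chance gives this in about 1 of 20 sets. Of germ-free mice on short-chain fructan, the third read 10.45 for Cldn7 (others 10.31 to 10.31) and 7.60 for Marveld2 (others 7.38 to 7.40), and the second read 9.32 for Cldn15 (others 9.21 to 9.23). Of conventional mice on short-chain fructan, the second read 7.17 for Marveld2 (others 7.28 to 7.30). Of conventional mice on water, the third read 9.43 for Cldn3 (others 9.56 to 9.58) and the first 9.33 for Cldn15 (others 8.98 to 9.04). None of these sets is of Cldn4 or Cldn8.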

How the results depend on the processing

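Over 36 other settings, the 33 differences in single genes with an unadjusted p under 0.05 in the main limma fit gave 1188 values. They were chosen by that p in the same data, which makes a change of sign unlikely, so the count is no test of robustness. Of these values 2 changed sign, both with the M cell and follicle epithelium markers as a covariate. These were Cldn15 between germ-free and conventional mice after short-chain fructan (-0.0102) and Marveld2 averaged over treatments (-0.0289). The cause was not tested. Of the counts of called genes, that for long-chain against short-chain fructan in germ-free mice became 0 without both long-chain mice with high B cell markers. Between germ-free and conventional mice after short-chain fructan it became 1 with the smooth muscle covariate (Cldn4) and 1 with the M cell covariate (Cldn8). After long-chain fructan it became 0 with array weights, without the same 2 mice and with the smooth muscle covariate. Averaged over treatments, the count at an adjusted p under 0.05 became 1 with the smooth muscle covariate (Cldn15) and 1 with the M cell covariate (Cldn8), while Cldn8 (0.34 and 0.80) and Cldn23 (0.31 and 0.28) differed by no less than without them (0.34 and 0.27). It was 8 with array weights, which added Cldn2 and Cldn4 as lower. Leaving out 1 mouse at a time, the counts ranged from 0 to 1 for long-chain fructan against water in conventional mice, for long-chain against short-chain fructan in germ-free mice, for germ-free against conventional mice on water and after long-chain fructan, and for the interaction with short-chain fructan, from 1 to 2 for germ-free against conventional mice after short-chain fructan, and from 5 to 7 averaged over treatments. Cldn4 after short-chain fructan against water in germ-free mice was called in all 36 settings (-0.71 to -0.47), with adjusted p from 0.26 to 1.00.

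Mice that share a replicate number share only a number: the deviations of 60 same-numbered pairs correlated with r from -0.14 to 0.18 (median 0.0074, 4 pairs over 0.1). With the replicate block the counts of calls were the same in every comparison, and averaged over treatments 5 genes in place of 6 had an adjusted p under 0.05. Signal over background cannot be read from normalized values, and changes under 1.3-fold cannot be calls, which leaves out most differences described here.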

Other observations

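In the comparison averaged over treatments, other junction genes outside the 10 also differed at an adjusted p under 0.05. Of 16 other claudins, whose mean lay below the array medians, Cldn6 (0.21), Cldn12 (0.14) and Cldn19 (0.19) were higher in germ-free mice and Cldn10 (-0.19) was lower. Of the plaque and polarity list, 3 genes were higher and 3 lower, among them Pard6b (0.38) and the zonula occludens scaffold Tjp3 (-0.19), which thus had the opposite sign to Tjp1. Of adherens junction and desmosome genes, 5 were higher, led by Ppl (0.42) and the desmosomal plaque gene Pkp2 (0.24), and 2 were lower, Nectin2 (-0.19) and Ctnnd1 (-0.10). The virus receptor and junction protein Cxadr was 0.20 higher. These genes were named after their values were seen, and 34% of all genes passed the same test.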
